A study of Penicillium oxalicum with 9 samples.

Results

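Starch is a glucose polymer, and filamentous fungi that feed on it secrete enzymes that act in sequence. Alpha-amylase cuts internal bonds of the chain, glucoamylase releases glucose from the chain ends, and alpha-glucosidase splits maltose and other short fragments into glucose. In Aspergillus species such genes are switched on by the activator AmyR and held down on glucose by the repressor CreA.

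The genes described here are 4 amylolytic genes of the soft-rot fungus Penicillium oxalicum, taken by identifier from a table of 9907 genes. They are the glucoamylase Amy15A (PDE_09417), an alpha-amylase (PDE_01201), an alpha-glucosidase (PDE_00400) and a starch binding domain protein (PDE_01354). The first 3 carry matching enzyme names in both sets of deposited descriptions. PDE_01354 is named in one set as a protein with starch binding and chitin binding domains, and in the other as both an alpha-amylase and a glucoamylase, so the descriptions do not settle whether it is an enzyme.

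Transcripts were measured in 9 libraries, 3 each from the wild type strain 114-2, a clrB deletion strain and an rcoA deletion strain. All were mycelia pre-grown for 22 h at 30 °C on 2% glucose, washed, and cultured for 24 h in Mandel's medium on 1% wheat bran, which carries starch, and 1% cellulose. ClrB is an activator of cellulase genes, and RcoA is the fungal counterpart of the yeast corepressor Tup1. The labels do not give the number of independent transformants per deletion, or whether libraries were grown as separate cultures. The p-values therefore cover the spread among the libraries at hand, which may be technical.

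Values are FPKM (fragments scaled to transcript length and to the number of mapped fragments), given as mean ± SD with n = 3 libraries per strain. Changes are log2 differences of FPKM + 1 with their standard error (SE), tested with limma over 9097 genes, and a gene was called at an adjusted p below 0.05. In clrB deletion libraries the clrB gene (PDE_05999) stood at 0.10 ± 0.017 FPKM against 185 ± 19.3 in wild type. The TUP1-described gene PDE_01024 stood at 2.71 ± 0.651 in the rcoA deletion against 67.8 ± 2.64, though the labels do not give the rcoA locus. Replicate 2 of the clrB deletion stood apart, correlating at 0.946 and 0.957 with the other replicates, which correlated at 0.991 with each other. Of all genes tested, 21.8% were called in the clrB deletion, 64.5% in the rcoA deletion and 60.1% between the deletions. Fewer cells of a kind and less RNA per cell cannot be told apart in such bulk libraries.

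The glucoamylase Amy15A moved in opposite directions in the deletions. Its FPKM was 1845, 1716 and 1475 in the wild type libraries, 1032, 1069 and 1176 in the clrB deletion, and 3038, 2775 and 2386 in the rcoA deletion. Every rcoA library lay above every wild type library, and every clrB library below. The means were 1679 ± 188 in wild type, 1092 ± 75.1 without ClrB, and 2733 ± 328 without RcoA. The fall without ClrB was 1.54-fold (log2 change -0.62, SE 0.15, adjusted p = 0.0226). This call was lost when wild type replicate 1 or 2, or clrB deletion replicate 1 or 3, was left out, with adjusted p up to 0.0805, and with quantile normalization (log2 change -0.35, adjusted p = 0.12). The rise without RcoA was 1.63-fold (log2 change 0.70, SE 0.15, adjusted p = 0.00297), and it was called in all 20 alternatives. Amy15A was 2.50-fold lower in the clrB than in the rcoA deletion (log2 change -1.32, SE 0.15, adjusted p = 8.21e-05).

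**Figure D1:**
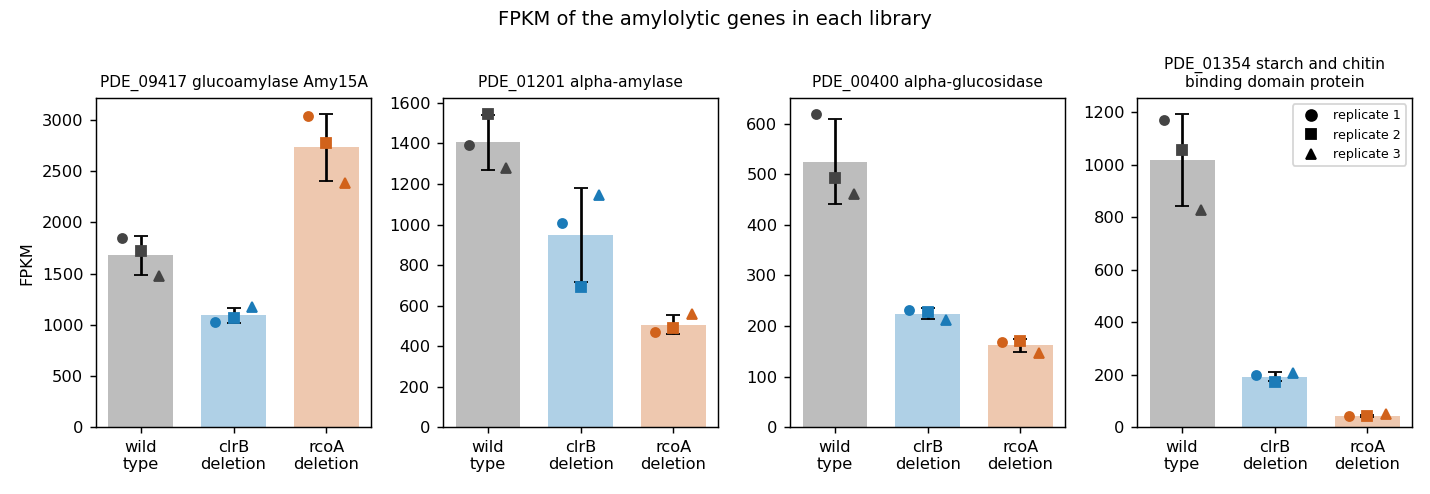
FPKM of the 4 amylolytic genes in each library of the 3 strains. Bars are means, error bars are SD (n = 3 libraries) and symbols are single libraries marked by replicate number. Amy15A is highest in the rcoA deletion, while the other genes are highest in wild type and lowest in the rcoA deletion.

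The alpha-amylase PDE_01201 was highest in wild type and lowest in the rcoA deletion. Its FPKM was 1391, 1547 and 1278 in wild type, 1009, 694 and 1146 without ClrB, and 469, 490 and 561 without RcoA. The libraries of the strains did not overlap in any pair. The fall without RcoA was 2.77-fold, from 1405 ± 135 to 507 ± 48.2 FPKM (log2 change -1.47, SE 0.19, adjusted p = 0.000134). Without ClrB the mean was 950 ± 232, 1.48-fold below wild type, and narrowly missed the threshold (log2 change -0.59, SE 0.19, 95% confidence interval -1.02 to -0.16, adjusted p = 0.0527). Replicate 2 held the lowest clrB value. Without it the log2 change was -0.38 (adjusted p = 0.0537). The call fell on the other side of the threshold in 5 of 20 alternatives, 3 of them other scalings.

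The alpha-glucosidase PDE_00400 fell in both deletions. Its FPKM was 620, 492 and 462 in wild type, 233, 228 and 212 without ClrB, and 168, 172 and 148 without RcoA. No 2 strains overlapped, and the wild type libraries were the most spread. The mean fell from 524 ± 83.8 to 224 ± 10.9 without ClrB, which is 2.34-fold (log2 change -1.21, SE 0.13, adjusted p = 0.000508). Without RcoA it fell 3.23-fold to 163 ± 12.9 (log2 change -1.68, SE 0.13, adjusted p = 5.45e-06). The clrB deletion stayed 1.38-fold above the rcoA deletion (log2 change 0.46, SE 0.13, adjusted p = 0.0117). That last difference was not called with trimmed mean factors (log2 change 0.33, adjusted p = 0.0549) or with equal medians (log2 change 0.32, adjusted p = 0.066).

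The starch binding domain protein PDE_01354 had the largest changes of the 4 genes in each comparison. Its FPKM was 1172, 1058 and 826 in wild type, 200, 172 and 205 without ClrB, and 43.2, 42.3 and 49.2 without RcoA. The strains formed well separated steps with no overlap. The mean fell 5.29-fold without ClrB, from 1019 ± 176 to 192 ± 17.5 (log2 change -2.39, SE 0.14, adjusted p = 1.77e-05). Without RcoA it fell 22.7-fold to 44.9 ± 3.73 (log2 change -4.46, SE 0.14, adjusted p = 4.50e-08). The clrB deletion was 4.29-fold above the rcoA deletion (log2 change 2.07, SE 0.14, adjusted p = 3.31e-06). These calls held in all 20 alternatives.

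In sum over the members, 3 of 4 fell and none rose in the clrB deletion, where 8.32% of all tested genes fell and 13.5% rose. Of all calls there 61.9% were higher, a share that became 46.9% when libraries were scaled by trimmed means, 49.9% by medians and 49.2% by quantiles. In the rcoA deletion 3 fell and 1 rose, where 34.1% of tested genes fell and 30.4% rose. Between the deletions 3 members were higher in the clrB deletion, where 35.2% of tested genes were called higher, and Amy15A was lower, as were 24.9%. The share of calls that were higher in this comparison was 58.6%, against 47.8% when scaled by trimmed means, 46.2% by medians and 45.3% by quantiles. For every member the libraries of any pair of strains did not overlap, which was so for 38.9% of tested genes between the clrB deletion and wild type, 73.9% between the rcoA deletion and wild type, and 65.5% between the deletions. Both deletion comparisons use the same wild type libraries.

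**Figure D2:**
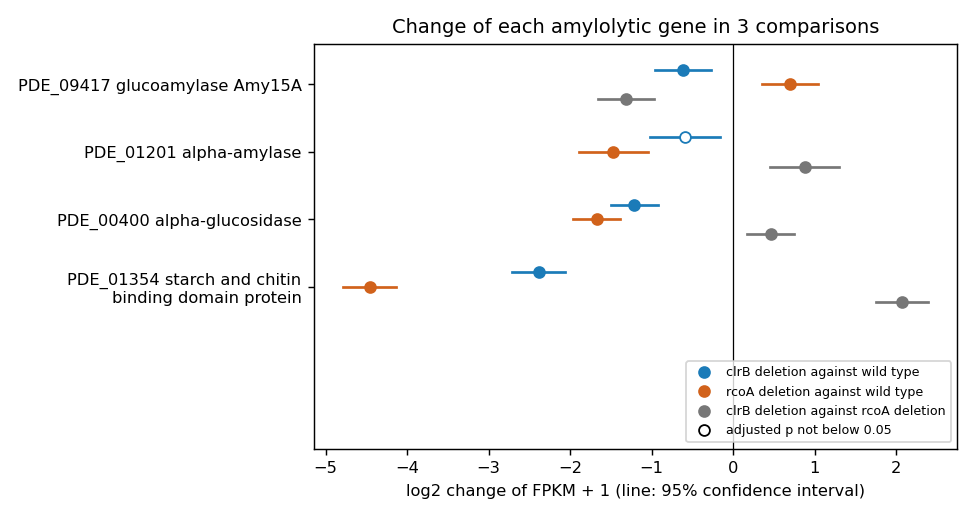
Log2 change of FPKM + 1 for each amylolytic gene in the 3 comparisons, with 95% confidence intervals as lines. Filled points had an adjusted p below 0.05. Amy15A is the member with opposite signs against wild type, at -0.62 and 0.70, and PDE_01354 lies farthest from 0.

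Whether the other members changed by the same factor as Amy15A was tested by expressing every gene relative to Amy15A within each library, which cancels the scaling of a library apart from the pseudocount. No difference from Amy15A was called for the alpha-amylase in the clrB deletion. The difference of their log2 changes was 0.02, with a 95% confidence interval of -0.49 to 0.54 (SE 0.24, adjusted p = 0.929). The alpha-glucosidase fell by more than Amy15A (difference -0.60, SE 0.19, adjusted p = 0.0105), and so did PDE_01354 (difference -1.77, SE 0.20, adjusted p = 1.61e-05). Without RcoA all 3 fell relative to Amy15A, with log2 differences of -2.17 for the alpha-amylase, -2.38 for the alpha-glucosidase and -5.16 for PDE_01354 and a highest adjusted p of 1.16e-06. Between the deletions the log2 differences were 2.20, 1.78 and 3.39, with a highest adjusted p of 4.66e-07. On this measure 75.4% of the other genes were called in the clrB deletion, 71.9% in the rcoA deletion and 90.7% between the deletions, in each of which Amy15A itself was called.

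The ratios within each library were as follows. Alpha-amylase FPKM was 75.4%, 90.2% and 86.6% of Amy15A FPKM in wild type, 97.8%, 65.0% and 97.4% without ClrB, and 15.4%, 17.6% and 23.5% without RcoA. The wild type and clrB ratios overlapped and the rcoA ratios lay far below both. For the alpha-glucosidase the mean ratio was 31.2% ± 2.46 in wild type, 20.6% ± 2.35 without ClrB, and 5.97% ± 0.374 without RcoA. For PDE_01354 it was 60.4% ± 3.90, 17.6% ± 1.61 and 1.67% ± 0.343.

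The order of the members by level therefore differed between strains, as far as FPKM can be compared between genes. The libraries were built from short tags next to one restriction site, while the FPKM scale corrects for length, so levels of different genes, their order and their sums are uncertain. In wild type the order was Amy15A, alpha-amylase, PDE_01354 and alpha-glucosidase. The first pair overlapped between libraries and the other neighbours did not. Without ClrB, Amy15A and the alpha-amylase again led with overlapping values, and the alpha-glucosidase stood above PDE_01354 with no overlap. The rcoA deletion had the order of the clrB deletion, and no neighbours overlapped. Among all 9907 genes ranked by mean FPKM, Amy15A was at place 54 in wild type, 69 without ClrB, and 29 without RcoA. The alpha-amylase was at 65, 87 and 233, the alpha-glucosidase at 194, 515 and 769, and PDE_01354 at 103, 628 and 2847.

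Summed over the 4 genes, FPKM was 4627 ± 519 in wild type, 2458 ± 288 without ClrB, and 3447 ± 289 without RcoA. Amy15A made up 36.3% ± 0.555 of that sum in wild type, 44.7% ± 4.12 without ClrB, and 79.1% ± 2.96 without RcoA. PDE_01354 went from 21.9% ± 1.43 to 7.84% ± 0.308 and 1.31% ± 0.218. The alpha-amylase held 30.5% ± 2.45, 38.2% ± 5.35 and 14.8% ± 2.70.

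**Figure D3:**
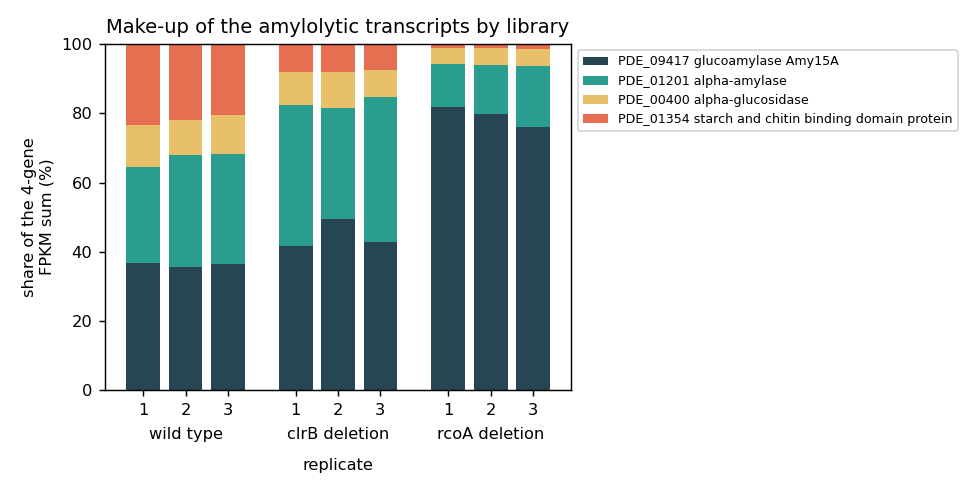
Share of each amylolytic gene in the FPKM sum of the 4 genes, in percent, for each of the 9 libraries grouped by strain. Amy15A fills 75.9% to 81.7% of the sum in the rcoA deletion libraries and 35.7% to 36.7% in wild type.

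Other genes with the same enzyme names were compared next. PDE_05527, the other gene described as a glucoamylase and nothing else, moved in the same directions as Amy15A. Its FPKM was 270, 221 and 269 in wild type, 142, 117 and 140 without ClrB, and 321, 340 and 341 without RcoA, again with no overlap. It fell 1.91-fold without ClrB (log2 change -0.93, SE 0.12, adjusted p = 0.00152) and rose 1.32-fold without RcoA (log2 change 0.40, SE 0.12, adjusted p = 0.0137). That rise missed the threshold when libraries were scaled by quantiles (adjusted p = 0.137) or without wild type replicate 2 (adjusted p = 0.0525). Relative to Amy15A its log2 change differed by -0.31 in the clrB deletion (95% confidence interval -0.74 to 0.12, adjusted p = 0.172) and by -0.30 in the rcoA deletion (-0.73 to 0.14, adjusted p = 0.198).

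A further 5 genes carry the glucoamylase name beside names of unrelated enzymes, and 3 of them passed the filter. None of the 3 was called in the clrB deletion and none was called higher in the rcoA deletion. Over all tested genes 21.8% were called in the clrB deletion, and 30.4% were called higher and 34.1% lower in the rcoA deletion. PDE_01166, also named a quinone reductase and a phosphatase, fell 2.87-fold without RcoA, from 64.2 ± 12.5 to 22.4 ± 3.33 FPKM (log2 change -1.47, adjusted p = 7.51e-05), and stood at 60.9 ± 10.5 without ClrB (adjusted p = 0.784). PDE_04460 was called lower in the rcoA deletion, at 3.78 ± 0.556 against 5.0 ± 0.256 FPKM (adjusted p = 0.0422). It was not called lower in 10 of its 19 alternatives, among them quantile scaling, where its sign reversed. PDE_02668 was not called there, at 7.88 ± 1.46 against 14.8 ± 3.9 FPKM (adjusted p = 0.0566). Without clrB deletion replicate 2 it was called lower there (adjusted p = 0.00309) and higher in the clrB deletion (adjusted p = 0.00398).

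The alpha-glucosidases did not move together. PDE_03966 read 165, 152 and 159 FPKM in wild type, 63.8, 42.7 and 56.6 without ClrB, and 624, 589 and 611 without RcoA. It thus fell 2.92-fold without ClrB (log2 change -1.55, SE 0.14, adjusted p = 0.000204) and rose 3.83-fold without RcoA (log2 change 1.93, SE 0.14, adjusted p = 3.61e-06), where PDE_00400 fell. In wild type PDE_00400 was the higher of the pair and in the rcoA deletion PDE_03966 was, with no overlap in either strain. PDE_04151, also described as an oligoglucosidase, fell 2.52-fold without RcoA, from 154 ± 21.2 to 61.2 ± 5.60 FPKM (adjusted p = 0.000174), and was not called in the clrB deletion, at 110 ± 28.4 (adjusted p = 0.0696). There it read 95.8, 143 and 91.3, and without replicate 2 it was called lower (adjusted p = 0.00295). The least abundant, PDE_04454, stood at 10.2 ± 0.787 FPKM in wild type, 12.6 ± 1.94 without ClrB, and 7.0 ± 1.68 without RcoA, where it was called lower (adjusted p = 0.0226). The PDE_04454 call was lost under quantile scaling, and without wild type replicate 1 or 2 or rcoA deletion replicate 1 or 2 (adjusted p from 0.0523 to 0.104). Apart from PDE_03235, described with the wider list, 3 further genes are named alpha-glucosidases beside another name, and all 3 were called lower in the rcoA deletion and not called in the clrB deletion. They are PDE_01756 (2.05-fold, adjusted p = 0.000158), PDE_02648 (5.15-fold, adjusted p = 6.73e-05) and PDE_09505 (1.27-fold, adjusted p = 0.019). Of all tested genes 34.1% were called lower in the rcoA deletion, and 21.8% were called in either direction in the clrB deletion. The other name is a molybdopterin synthase subunit for PDE_01756 and an alpha 1,3-glucosidase for PDE_02648 and PDE_09505. The descriptions therefore do not settle whether these genes act on starch. The PDE_09505 call was lost with equal medians and without wild type replicate 2 or rcoA deletion replicate 2 or 3 (adjusted p from 0.0524 to 0.0715), and without clrB deletion replicate 2 PDE_02648 was called higher in the clrB deletion (adjusted p = 0.00492).

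The alpha-amylases differed as well. PDE_04684 was not called in any comparison, at 557 ± 19.7 FPKM in wild type, 479 ± 18.0 without ClrB, and 517 ± 54.0 without RcoA (adjusted p from 0.177 to 0.422). Its log2 change without RcoA was -0.11, with a 95% confidence interval of -0.36 to 0.14, beside -1.47 for PDE_01201. In the rcoA deletion the FPKM of both alpha-amylases overlapped. PDE_04683, whose identifier number is next to that of PDE_04684, rose 2.47-fold without RcoA, from 15.6 ± 1.60 to 38.5 ± 2.82 FPKM (adjusted p = 6.29e-05), and was not called in the clrB deletion, at 14.9 ± 3.11 (adjusted p = 0.756). Where copies are nearly identical in sequence they may have shared reads, which the files do not show.

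**Figure D4:**
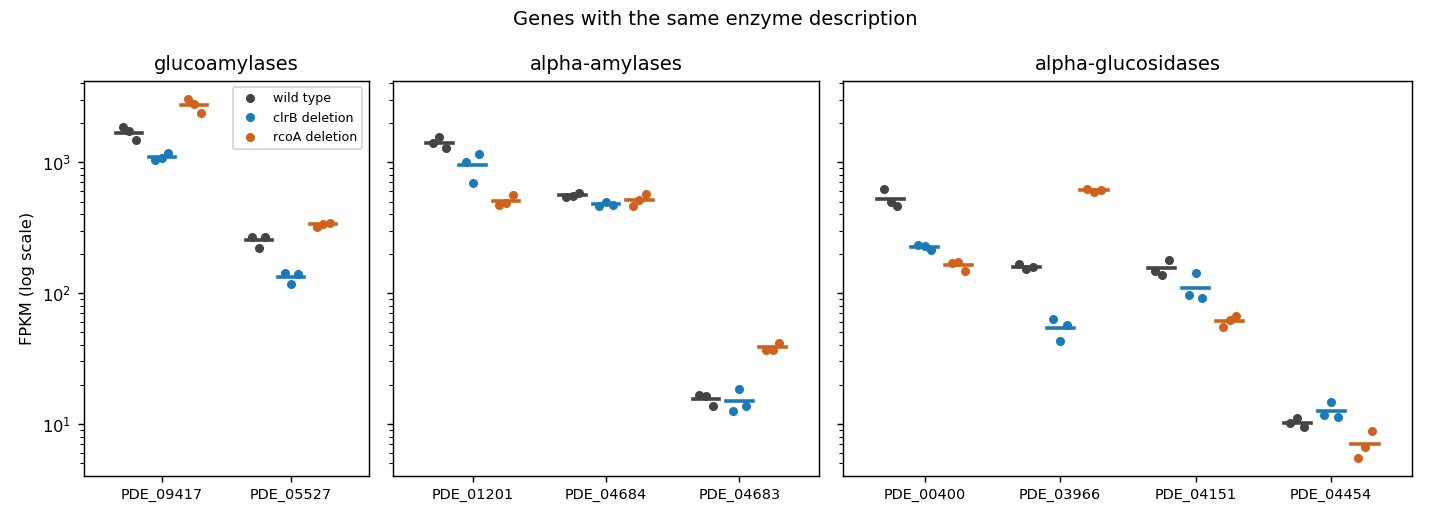
FPKM on a log scale of genes described as glucoamylases, alpha-amylases or alpha-glucosidases, with points for single libraries and lines for strain means. In the rcoA deletion PDE_03966 stands at 589 to 624 FPKM and PDE_00400 at 148 to 172, the reverse of their order in wild type.

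The wider list of starch degradation genes, found by words in the descriptions, held 28 genes, of which 24 passed the filter of a mean of at least 1 FPKM. Without ClrB 6 fell, 0 rose and 18 were not called, with a median log2 change of -0.08 against 0.08 over all tested genes. Without RcoA 13 fell and 5 rose, with a median of -0.44 against -0.04. Over all tested genes 8.32% fell and 13.5% rose without ClrB, and 34.1% fell and 30.4% rose without RcoA. Without clrB deletion replicate 2 the clrB counts over the 24 were 9 lower and 4 higher, where 13.4% of all tested genes were lower and 24.2% higher. Leaving out the 4 members, 3 of 20 tested genes fell and 0 rose without ClrB (6 and 4 without that replicate), and 10 fell and 4 rose without RcoA. The glycogen phosphorylase PDE_00122 is among the 3 that fell without ClrB. It matched the words of both lists and is counted again with the glycogen genes below. The names of 9 of the 28 include chitin or glucan with another linkage, PDE_01354 among them, and without these 5 of 17 tested genes fell in the clrB deletion and 9 fell and 5 rose in the rcoA deletion. The 17 still include PDE_02648 and PDE_09505, both also described as alpha 1,3-glucosidases and both called lower in the rcoA deletion. The words also caught enzymes that trim sugars on glycoproteins. Of these the mannosyl-oligosaccharide glucosidase PDE_03235 was 1.40-fold higher without RcoA (adjusted p = 0.0118) and was not called in the clrB deletion, at 83.5 ± 0.889 FPKM in wild type and 91.3 ± 4.71 (adjusted p = 0.51). The chitin binding domain protein PDE_03292, also described as a glucanase, fell 9.15-fold without RcoA, from 2201 ± 166 to 241 ± 57.1 FPKM (adjusted p = 0.00247). Its clrB deletion libraries read 228, 1971 and 295, and its call depended on replicate 2 (adjusted p = 0.0527 with it and 1.25e-05 without). The glucanase PDE_05223 fell 7.84-fold without RcoA, from 151 ± 12.6 to 19.2 ± 3.69 FPKM (adjusted p = 6.34e-06).

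Uptake of maltose and related sugars was represented by 10 genes described as alpha-glucoside proton symporters, 9 of them tested. Without ClrB 2 fell and 0 rose, and without RcoA 3 fell and 2 rose, with medians of -0.48 and -0.37. The rcoA counts are near the shares of all tested genes given for the starch list, 34.1% lower and 30.4% higher. PDE_06576 fell furthest. It read 371, 289 and 207 FPKM in wild type, 10.1, 20.3 and 11.3 without ClrB, and 97.5, 98.1 and 93.1 without RcoA. Its fall was 20.8-fold without ClrB (log2 change -4.31, SE 0.26, adjusted p = 2.00e-05) and 3.01-fold without RcoA (log2 change -1.54, SE 0.26, adjusted p = 0.00076). The other symporter called lower without ClrB was PDE_04150 (log2 change -0.96, adjusted p = 0.0368), whose call was lost in 10 of 20 alternatives. PDE_09994, the gene also named a maltose permease, was not called in either deletion, at 374 ± 44.0, 281 ± 120 and 345 ± 34.1 FPKM (adjusted p = 0.182 and 0.704). Without clrB deletion replicate 2 it was called lower (log2 change -0.81, adjusted p = 0.00152). PDE_03571 read 70.3, 233 and 74.9 in the clrB deletion against 265, 242 and 191 in wild type, and 385, 419 and 482 in the rcoA deletion. It was not called against wild type in the clrB or the rcoA deletion (adjusted p = 0.076 and 0.0745), but without clrB deletion replicate 2 it was called lower there (adjusted p = 8.92e-05) and higher in the rcoA deletion (adjusted p = 0.000291). Without that replicate 5 symporters were called lower in the clrB deletion, in a fit where the share of all tested genes called lower also rose, from 8.32% to 13.4%.

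Glycogen is the intracellular storage polymer with the same bonds as starch. The words searched for it matched 11 genes, all tested, but 3 of these carry names of other functions. PDE_07899 is a lariat debranching enzyme, which acts on RNA, PDE_05326 is named both a glycogenin and a galactinol synthase, and PDE_04801 both a debranching enzyme and a signal recognition particle receptor. Over all 11, 2 fell and 2 rose without ClrB, and 1 fell and 6 rose without RcoA, with medians of -0.04 and 0.44 against 0.08 and -0.04 over all tested genes. Without those 3, which were all called higher in the rcoA deletion, 2 of 8 fell and 1 rose without ClrB, and 1 fell and 3 rose without RcoA. The 8 still include PDE_01031, described as a glycogen synthase kinase, which is a protein kinase. PDE_01031 was the 1 called higher without ClrB (log2 change 0.41, adjusted p = 0.0267), a call lost in 6 of 20 alternatives. It was also 1 of the 3 called higher without RcoA (log2 change 0.68, adjusted p = 0.000454). The shares of all tested genes were 8.32% lower and 13.5% higher without ClrB, and 34.1% lower and 30.4% higher without RcoA. The call of PDE_05326 (adjusted p = 0.0379) was lost when wild type replicate 2 or 3, clrB deletion replicate 3 or any rcoA deletion replicate was left out (adjusted p from 0.0533 to 0.115). Glycogen phosphorylase PDE_00122, which frees glucose phosphate from the polymer, fell 1.70-fold without ClrB, from 424 ± 4.61 to 250 ± 43.0 FPKM (log2 change -0.77, SE 0.14, adjusted p = 0.00711). It was not called in the rcoA deletion, at 404 ± 46.0 (adjusted p = 0.638). The other gene described as a glycogen phosphorylase, PDE_02847, was lower without RcoA (log2 change -0.78, adjusted p = 7.24e-05). In the clrB deletion PDE_02847 was not called (log2 change -0.28, adjusted p = 0.0522), but was called lower in 6 of 20 alternatives. Glycogen synthase PDE_09899 fell 1.39-fold without ClrB, from 103 ± 4.45 to 74.0 ± 6.42 FPKM (adjusted p = 0.0103), and was not called without clrB deletion replicate 3 (adjusted p = 0.0515). The debranching enzyme PDE_04535 was 1.75-fold higher in the rcoA deletion (adjusted p = 0.0349), where its libraries read 133, 88.3 and 54.6 FPKM. Its values in wild type lay between 50.7 and 53.8. The call was lost when any wild type replicate, or rcoA deletion replicate 1 or 2, was left out (adjusted p from 0.0716 to 0.0875).

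Glucose released by these enzymes is phosphorylated by hexokinase inside the cell. The list for this step held 9 genes, 8 described as hexokinases and 1 as a ketohexokinase, and no KEGG or nr description named a glucose or hexose transporter in those words. Without ClrB 4 rose and 0 fell, and without RcoA 3 rose and 1 fell, with medians of 0.57 and 0.19. Of all tested genes 13.5% rose without ClrB and 30.4% without RcoA. Without clrB deletion replicate 2 the hexokinase counts in the clrB deletion were 7 higher and 0 lower, and 24.2% of all tested genes were higher. PDE_08226 rose in both, from 22.3 ± 2.14 FPKM to 65.5 ± 25.3 without ClrB (2.94-fold, adjusted p = 0.011) and to 58.2 ± 15.5 without RcoA (2.62-fold, adjusted p = 0.00322). Its clrB deletion libraries read 86.2, 37.3 and 72.9, with replicate 2 the lowest. PDE_03592 (adjusted p = 0.0269) and PDE_00878 (adjusted p = 0.0332) were also called higher in the clrB deletion. In that deletion the PDE_03592 call was lost in 8 of 20 alternatives and the PDE_00878 call in 6 of 20. PDE_03592 was also called higher without RcoA (log2 change 0.92, adjusted p = 7.80e-05). So was PDE_03370 (log2 change 1.75, adjusted p = 1.30e-05), which was not called in the clrB deletion (log2 change 0.37, adjusted p = 0.115). Without clrB deletion replicate 2 PDE_03370 was called higher there (adjusted p = 0.0243). PDE_07688 rose 1.77-fold in the clrB deletion (adjusted p = 0.0338), a call lost when any wild type replicate, clrB deletion replicate 1 or 3, or rcoA deletion replicate 2 was left out (adjusted p from 0.056 to 0.125), and fell 1.91-fold in the rcoA deletion (adjusted p = 0.00457).

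**Figure D5:**
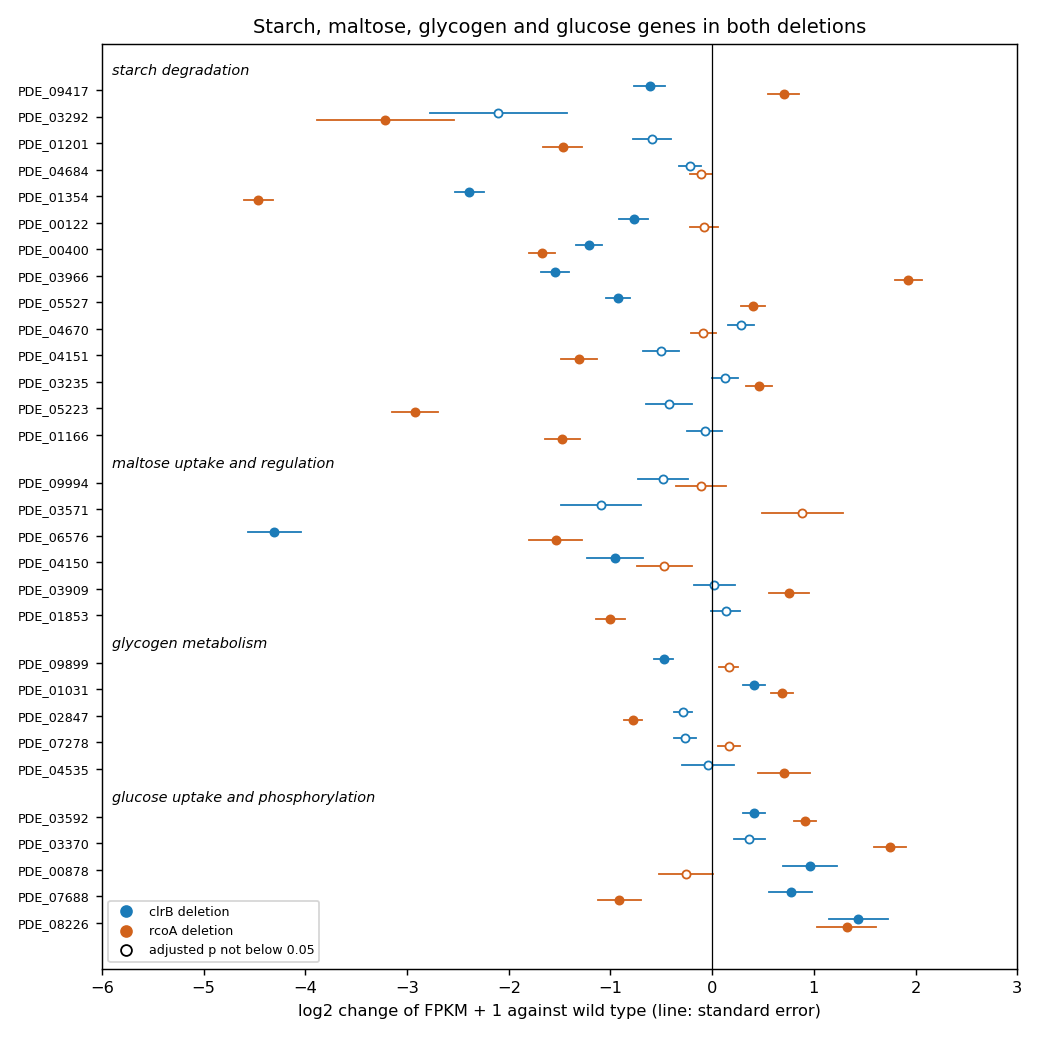
Log2 change of FPKM + 1 against wild type in the clrB and rcoA deletions for the 30 starch, maltose, glycogen and glucose genes with the highest mean FPKM, with the standard error as lines. Filled points had an adjusted p below 0.05. Amy15A, PDE_05527 and PDE_03966 are lower in the clrB deletion and higher in the rcoA deletion.

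Cellulase genes gave the scale of both deletions in the same libraries. Cellobiohydrolase Cel6A (PDE_07124) fell, with log2 changes of -8.21 without ClrB and -5.81 without RcoA (adjusted p = 1.38e-07 and 1.35e-07). Relative to Amy15A its log2 differences were -7.60 and -6.51 (adjusted p = 1.29e-11 and 1.58e-11). Cel7A-2 (PDE_07945) fell relative to Amy15A as well (adjusted p = 7.02e-06 and 1.65e-06), from 6744 ± 1078 FPKM to 471 ± 298 and 1364 ± 161. CreA (PDE_03168), the repressor that acts on glucose, was at 772 ± 16.5 FPKM in the rcoA deletion against 335 ± 27.4, which is 2.31-fold higher (adjusted p = 8.69e-06). It was not called in the clrB deletion, at 391 ± 5.95 (adjusted p = 0.13). PDE_07674, listed beforehand with these regulators and cellulase genes, was called lower in both deletions. Its log2 change was -0.48 without ClrB (adjusted p = 0.036), a call lost in 8 of 20 alternatives, and -1.08 without RcoA (adjusted p = 0.000116). No gene was described as AmyR.

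The labels give mycelia, and genes of spore formation were therefore listed as markers of other cells. Of 5 such genes 4 were tested, and 1 was higher in the clrB deletion and 2 lower in the rcoA deletion. Over all tested genes the shares called in those directions were 13.5% and 34.1%. Between the deletions 3 of the 4 tested markers were called higher without ClrB and 1 higher without RcoA. Over all tested genes these shares were 35.2% and 24.9%. The conidiation regulator BrlA (PDE_00087) read 18.2, 27.9 and 28.5 FPKM in wild type, 149, 33.4 and 121 without ClrB, and 13.0, 12.4 and 13.7 without RcoA. It was the marker called higher in the clrB deletion (adjusted p = 0.0294), a call lost when any wild type replicate, or clrB deletion replicate 1 or 3, was left out (adjusted p from 0.0586 to 0.109). The scytalone dehydratase PDE_04496, of pigment synthesis, read 36.5 to 56.1, then 200, 45.0 and 152, then 0.45 to 0.54. A second scytalone dehydratase, PDE_09236, was listed at 0 in every rcoA library. The spore wall maturation gene PDE_01188 went the other way in its values, at 3.96 ± 2.18 FPKM in wild type, 2.29 ± 1.46 without ClrB, and 13.1 ± 11.7 without RcoA. It was not called against wild type (adjusted p = 0.534 and 0.133) but was lower in the clrB than in the rcoA deletion (adjusted p = 0.0382), a call lost in 7 of 20 alternatives. A second gene described as BrlA, PDE_00079, had 0.99 ± 0.552, 0.583 ± 0.49 and 0.52 ± 0.364 FPKM and was not tested. The 5 markers summed to 61.2 to 94.9 FPKM in wild type, 356, 87.8 and 281 without ClrB, and 17.3 to 39.7 without RcoA. The sum of clrB deletion replicate 2 thus lay within the wild type range. Their part in the changes of the amylolytic genes was not tested. In clrB deletion replicate 2 the alpha-amylase PDE_01201 read 694 FPKM against 1009 and 1146 in the other clrB libraries. Amy15A there read 1069 against 1032 and 1176, the alpha-glucosidase PDE_00400 read 228 against 233 and 212, and PDE_01354 read 172 against 200 and 205.

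The genes with profiles most like each member were taken from those with a functional description and a mean of at least 10 FPKM, by the root mean square difference over the 9 libraries of log2 values centred on each gene's mean. The measure rests on strain differences more than on 9 independent points. Amy15A was closest to PDE_08927, described as an arrestin-related trafficking adapter (difference 0.09), followed by PDE_08047, which is named both a cornichon and an exoribonuclease (0.15), and PDE_08230, a peroxiredoxin (0.16). The alpha-amylase was closest to PDE_04267, a choline transport protein (0.15), PDE_02056, a nicotinamide methyltransferase (0.17), and PDE_03018, a cystinosin (0.21). The alpha-glucosidase was closest to PDE_04541, a ClpX subunit (0.16), PDE_08788, a sulfite reductase component (0.17), and PDE_00658, with the same pair of names as PDE_08047 (0.20). PDE_01354 had no equally close gene, the nearest being the alcohol dehydrogenase PDE_09616 (0.37), PDE_00814, which carries several unrelated names (0.41), and the epimerase PDE_01637 (0.41). The measure is not scaled for the size of a gene's changes, which were largest for PDE_01354 among the members. Its greater distances therefore do not show that the shape of its profile is unusual.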

How the data were processed

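Per the labels' protocols, mRNA was purified on oligo(dT) beads, and NlaIII and MmeI reduced its cDNA to short sequence tags. FPKM values were computed by the authors and deposited for 9907 genes to 2 decimals, per the file headers. Which aligner, annotation, gene lengths and build they used is not given in the sources used here. Depth per library is unknown, since no counts were used. FPKM sums ranged from 776855 to 820648. A further 3 columns of per-library values with no sample among the labels were not used. The RefSeq table for strain HP7-1 lists 9964 genes and shared 0 identifiers with the 9907 used here, so no coordinates or sequences are given.

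Genes with a mean of at least 1 FPKM were fitted as log2(FPKM + 1) by limma 3.58.1 (R 4.3.3), using all 9 libraries, a mean for each strain and an intensity trend. Tests were two-sided with Benjamini-Hochberg adjustment over all tested genes. Fold changes are ratios of mean FPKM, and log2 changes understate those of low genes. The members and lists were chosen with earlier results of these data known. Lists are word patterns over the KEGG and nr descriptions, and a space was accepted in alpha glucoside after the descriptions were seen. Named genes were the members, regulators, the 30 list genes of highest mean (46 reached 10 FPKM), the 3 closest profiles per member and identifiers within 2 of a member. Alternatives changed the pseudocount, the filter, the scaling, the intensity trend, the samples fitted, a replicate block and each library left out. Other list genes and the spore markers were named outside that rule, after values were seen. The fit was tested on simulated data.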

Additional observations from a re-analysis of the deposited data

How the results depend on the processing

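Each result was recomputed under 20 alternatives, or 14 for changes relative to Amy15A. PDE_04460 and PDE_09236 had 19, since the filter of 5 FPKM left them out. Of the 12 changes of the 4 members, 9 kept their direction and side of the threshold in all 20, and the other 3 kept their direction. The fall of Amy15A in the clrB deletion was -0.35 with quantile normalization and -0.71 to -0.54 with 1 library left out. The change of the alpha-amylase PDE_01201 there was called with a filter of 5 FPKM (-0.59, adjusted p = 0.0497), equal sums (-0.61), trimmed mean factors (-0.67), equal medians (-0.65) and no trend (-0.59). The alpha-glucosidase PDE_00400 between the deletions was 0.33 with trimmed mean factors and 0.32 with equal medians. Of the 9 changes relative to Amy15A, 8 kept direction and call, while that of the alpha-amylase in the clrB deletion, near 0, went from -0.075 to 0.22 with 1 library left out. The 1987 calls in the clrB deletion became 1274 with the strains fitted alone and 722 to 3412 with 1 library left out (874, 1077 and 1288 without wild type replicates 1, 2 and 3, 3412 and 722 without clrB deletion replicates 2 and 3). Scaling moved the median change of all genes between the deletions from 0.11 to -0.019 under trimmed means, -0.036 under medians and -0.052 under quantiles.

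For the other 153 gene results, 2860 of 3054 alternative values kept direction and side, 125 lost a call, 41 gained one and 28 changed sign. In the clrB deletion PDE_03909 was -0.058, -0.042 and -0.055 under trimmed means, medians and quantiles and PDE_09505 was -0.017, -0.0022 and -0.010, and with 1 library left out PDE_03909 ranged from -0.18 to 0.19, PDE_01756 from -0.22 to 0.063, PDE_01853 from -0.024 to 0.24, PDE_01166 from -0.20 to 0.078, PDE_01024 from -0.036 to 0.018, PDE_09236 from -0.18 to 0.35, PDE_04683 from -0.22 to 0.034, PDE_01353 from -0.55 to 0.11 and PDE_01356 from -0.0076 to 0.30. In the rcoA deletion PDE_04460 was 0.035 with quantile normalization, PDE_00122 was 0.0032 with equal medians and -0.15 to 0.012 with 1 library left out, and PDE_04670 -0.18 to 0.0091. Between the deletions PDE_04684 was 0.14 with quantile normalization, and PDE_08226 was -0.018 under trimmed means, -0.030 under medians and -0.12 to 0.47 with 1 library left out. The cause was not tested.

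The labels do not say that replicate numbers pair the libraries, and deviations of same-numbered libraries correlated from -0.161 to 0.341, above 0.1 in 2 of 9 pairs. With a replicate block 1725, 5803 and 5380 genes were called in the clrB, rcoA and between-deletion comparisons, and no call of the 4 members changed. PDE_04150 lost its call in the clrB deletion (adjusted p = 0.0613) and PDE_09419 gained one (adjusted p = 0.0403). Between the deletions PDE_01031 gained a call (adjusted p = 0.023) and PDE_01188 lost one (adjusted p = 0.057). Depth is unknown, so what it limits cannot be stated.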

Other observations

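Identifiers numbered within 2 of each member were listed as possible neighbours, since no annotation used here places them on a chromosome. Of 16 such genes 14 were tested. Beside Amy15A, the undescribed PDE_09419 rose 38.2-fold without RcoA, from 6.15 ± 1.70 to 235 ± 46.2 FPKM (log2 change 5.05, adjusted p = 1.85e-05), while PDE_09418 fell 1.74-fold, from 12.1 ± 0.929 to 6.93 ± 1.17 FPKM (adjusted p = 0.00291). Beside PDE_01354, the tripeptidyl-peptidase PDE_01353 fell 24.2-fold without RcoA, from 69.9 ± 9.37 to 2.89 ± 0.663 FPKM (adjusted p = 3.66e-06), and PDE_01356 fell 5.54-fold (adjusted p = 1.92e-05). Neither was called in the clrB deletion, at 61.3 ± 26.1 and 66.3 ± 11.4 FPKM (adjusted p = 0.527 and 0.664), where PDE_01354 fell. PDE_01355, numbered next to PDE_01354, read 8.42 ± 1.72 FPKM in wild type, 19.0 ± 4.60 without ClrB and 11.1 ± 1.65 without RcoA. Beside the alpha-amylase, PDE_01202 read 3.28 ± 0.379 FPKM in wild type and 6.90 ± 1.02 without RcoA. PDE_01200 there read 543.4 ± 130.1 and 538.5 ± 11.5. Of all tested genes 34.1% were called lower and 30.4% higher in the rcoA deletion. Beside the alpha-glucosidase, the chitin glucanosyltransferase PDE_00401 rose 1.27-fold without ClrB (adjusted p = 0.0202) and fell 1.51-fold without RcoA (adjusted p = 0.000216). Its rise was not called with trimmed mean factors, with the strains fitted alone, or without wild type replicate 1 or 3 or clrB deletion replicate 3 (adjusted p from 0.054 to 0.0767).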
